A study of Mus musculus with 8 samples.

Results

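The genes described here are 36 mouse genes of programmed cell death: the tumour suppressor p53 with its inhibitors, the BCL-2 family, the caspases with their activators and inhibitors, and transcriptional targets of p53. They were chosen by name, from a list drawn up when earlier results of these data were known. All 36 are on the array, with 47 probes on 58 spots, and 34 of them were kept among the 19751 genes tested. The 2 that were not kept are Bcl2l11 and Birc3.

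The study asks what a short loss of uterine blood flow before birth leaves behind in the gene expression of the newborn cortex. The ischemia group held the cortices of 4 pups whose mothers, while anesthetized at E16.5, had their uterine arteries closed with clips, and the closure lasted 14 min. The control group held 4 cortices, for which neither an operation nor anesthesia of the mother is recorded. Each cortex came from a male C57BL/6NCr pup (an inbred strain) at P1.5, the stage just after birth, and had a single-colour array of its own. Which pups shared a mother is not given, so p-values cover only the variation among these pups, and a litter effect cannot be told apart from the group difference. Whole cortex was used, so fewer cells of a type and less RNA per cell cannot be told apart.

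Apoptosis is a cell's own route to death. In the mitochondrial route, BH3-only proteins either block the pro-survival BCL-2 proteins or switch on BAX and BAK, which open the outer mitochondrial membrane. Cytochrome c then assembles with APAF1 and caspase-9 into the apoptosome, which starts the caspase cascade, and XIAP and its relatives restrain it until SMAC/DIABLO removes them. In the receptor route, FAS and the adaptor FADD activate caspase-8. p53, held low by MDM2 and MDM4, induces BH3-only genes as well as genes of cell cycle arrest and repair. In the cortex around birth this machinery removes surplus progenitors and neurons, and much of its control lies in protein stability and cleavage, which an mRNA array does not read.

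Levels are given on a log2 scale relative to the 75th percentile of the same array, so that 0 is a signal equal to that percentile and 1 unit is a doubling. They depend on the probe and are not compared between genes. The 75th percentile of signal lay between 358.5 and 393.3 on ischemia arrays and between 305.6 and 391.4 on control arrays. Spots well above background made up 47.6% to 51.7% on ischemia arrays and 49.2% to 50.6% on control arrays, and 0 were saturated. The arrays of the groups lay in different rows of 1 slide, so slide row and group cannot be told apart. Tbr1, a transcription factor of early cortical neurons, was measured in every cortex, at 4.51 to 5.06 in ischemia and 4.67 to 4.79 in controls, and Emx1, a marker of the dorsal forebrain, at 1.38 to 1.44 in ischemia and 1.39 to 1.46 in controls. Relative to the control mean, 8 meningeal genes averaged 1.68, -0.17, 0.56 and 0.99 in ischemia replicates 1 to 4, and between -0.19 and 0.17 in controls. Among them, Ptgds (2.35), Slc6a13 (1.56) and Col1a1 (1.40) had the largest group differences and the median was 0.44. Lum (-0.05), Ogn (-0.02) and Dcn (0.02) differed little. The 5 measured choroid plexus genes averaged 3.67 in ischemia replicate 4, between -0.65 and 0.15 in the other ischemia arrays, and between -0.09 and 0.06 in controls.

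No member passed the test between the groups. With limma, 0 of the 34 kept members had an adjusted p under 0.05, as against 1 of 19751 genes, or 0.00506%. At an unadjusted limma p under 0.05 there were 4 members, or 11.8%, next to 10.9% of all genes. These were Trp53 and Mcl1, higher in ischemia as 3.25% of all genes were, and Gadd45b and Fadd, lower in ischemia as 7.65% of all genes were. The same 4 were the members whose ischemia and control values did not overlap (11.8%, where 6.55% of all genes did not overlap, 2.27% higher and 4.28% lower). Over the kept members the median difference was 0.026, with 20 higher and 14 lower, while the median over all genes was -0.02 and 43% of genes lay above 0. The members' median was -0.0052 without ischemia replicate 1, 0.0062 without ischemia replicates 1 and 4, 0.0086 without control replicate 3 and 0.0029 with the mean of each gene's probes. Ischemia replicate 1 was the array highest in meningeal genes and ischemia replicate 4 the array highest in choroid plexus genes. Without both arrays, 4 members again had an unadjusted limma p under 0.05 (11.4% of all genes did). These were Gadd45b at -0.34, Fadd at -0.21, Mdm2 at 0.22 and Trp53inp1 at 0.19, while Trp53 at 0.25 (limma adjusted p = 0.471) and Mcl1 at 0.17 (limma adjusted p = 0.444) missed that unadjusted threshold. The 95% interval of the difference lay within 0.5 log2 units of 0 for 30 of the 34 members and within 0.25 for 15.

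**Figure D1:**
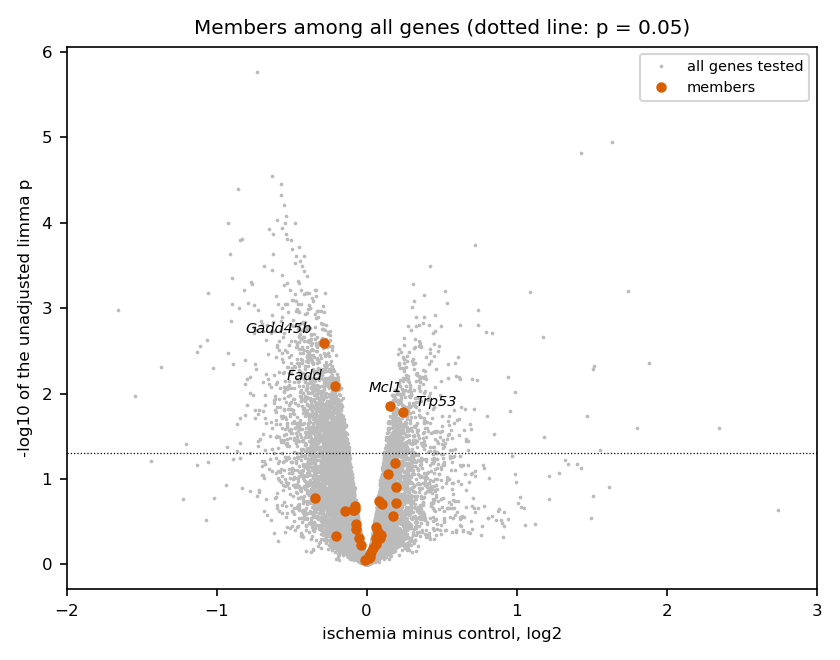
Difference between ischemia and control cortices (x axis, log2) against the unadjusted limma p (y axis, as -log10) for the 19751 genes tested (grey) and the 34 kept members (orange). The 4 labelled members lie above the dotted line, which marks the unadjusted threshold, and the members lie between -0.35 and 0.24 on the x axis.

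Trp53, which encodes the transcription factor p53, was read by a probe printed on 2 spots, at 69404204 to 69404263 of chromosome 11. This position and those below are of mouse build mm9, from the array's own annotation. No exon map of that build was used, so whether a probe lies in a coding exon or an untranslated region was not analysed here. The Trp53 level was -1.43, -1.31, -1.44 and -1.33 in ischemia replicates 1 to 4, against -1.74, -1.51, -1.74 and -1.48 in control replicates 1 to 4. Every ischemia array lay above every control array, although ischemia replicates 1 and 3 came close to control replicates 2 and 4. Control replicates 2 and 4 lay apart from replicates 1 and 3, so the controls spread more (SD 0.14, n = 4) than the ischemia arrays (SD 0.07, n = 4). The difference was 0.24 (SE 0.08, limma adjusted p = 0.360), a 1.18-fold higher level in ischemia. With normexp background correction it was 0.14 (limma adjusted p = 0.392).

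Mdm2 encodes the ubiquitin ligase that marks p53 for degradation, and its gene is itself a p53 target. Its probe lies at 117126010 to 117126069 of chromosome 10. The level was 3.25, 3.30, 3.53 and 3.27 in ischemia replicates 1 to 4 and 3.25, 3.15, 3.18 and 3.20 in control replicates 1 to 4. The groups overlapped, since control replicate 1 lay above ischemia replicate 1, and ischemia replicate 3 was the highest of all. The difference of 0.14 (SE 0.07, limma adjusted p = 0.529) became 0.08 without ischemia replicate 3 (limma adjusted p = 0.714). Mdm4, the relative of MDM2 that masks the activation domain of p53, ranged from -0.27 to -0.15 in ischemia and from -0.49 to -0.04 in controls, and its second probe pointed the other way (-0.16).

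The targets of p53 were read next to p53 itself. Cdkn1a encodes p21, the inhibitor of cyclin-dependent kinases through which p53 arrests the cell cycle. Its main probe, at 29237377 to 29237436 of chromosome 17, is printed on 10 spots of each array. The level was -0.12, -0.28, -0.70 and -0.43 in ischemia replicates 1 to 4 and -0.51, -0.51, -0.35 and -0.51 in control replicates 1 to 4. Ischemia replicate 1 was the highest of the 8 arrays and ischemia replicate 3 the lowest, so the controls lay inside the range of the ischemia group. The spots of an array scattered by an SD of 0.07 to 0.12 in ischemia and 0.05 to 0.10 in controls, and the array means by an SD of 0.25 in ischemia and 0.08 in controls (n = 4 each). Spots of an array share its labelling and hybridisation, so their scatter leaves out that part of the error. The group difference was 0.09 (SE 0.12, limma adjusted p = 0.843). Without ischemia replicate 1 it was 0.00, without ischemia replicate 2 it was 0.05, and without ischemia replicate 3 it was 0.19. In the same ischemia arrays, replicates 1 to 4, the mean of 15 cell cycle genes lay at -0.26, -0.19, -0.56 and -0.25 from the control mean, and that of 8 endothelial genes at 0.35, 0.44, 0.20 and 0.10. Control arrays lay between -0.18 and 0.15 for the cell cycle genes and between -0.07 and 0.08 for the endothelial genes. Of those 8, Slco1a4 (1.09) and Ly6c1 (0.84) had the largest group differences, and the median was 0.07. The part of these, or of the meningeal genes given above, in the Cdkn1a values was not tested. A pair of further Cdkn1a probes, for other transcripts, was well above background on 0 of 8 arrays.

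**Figure D2:**
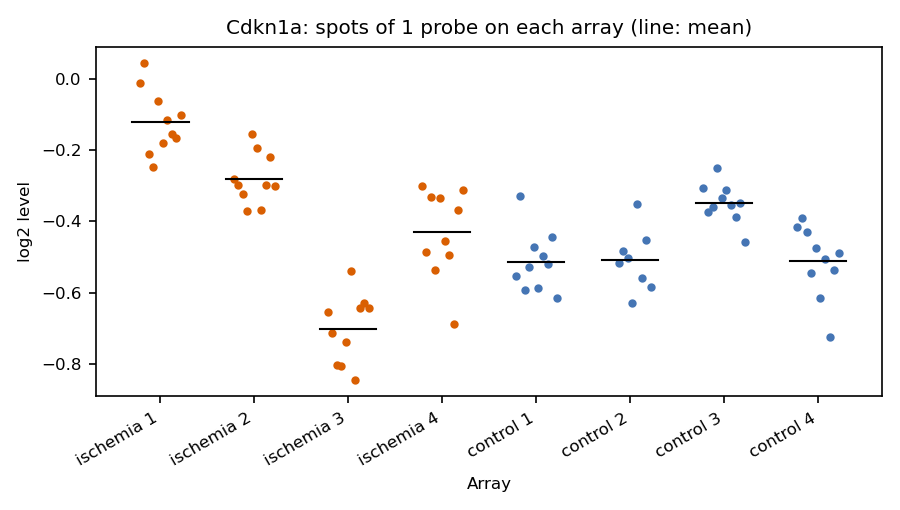
Cdkn1a level (y axis, log2 relative to the array's 75th percentile) of each unflagged spot of its main probe, for the 4 ischemia arrays (orange) and the 4 control arrays (blue), with the array's mean as a line. Spots of an array lie close together, and the ischemia means run from -0.70 to -0.12 while those of the controls run from -0.51 to -0.35.

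p53 binds DNA through copies of a ten-letter element, the p53 half-site, which has a C, then A or T at each of the central positions, then G, flanked by purines before and pyrimidines after. The element reads the same on both strands. RefSeq promoter windows of build GRCm38.p6, from 250 bases before to 50 after a start site, matched 34 of the 36 members in 47 windows, all but Pmaip1 and Trp53inp1. A match to the element was found in 9 of the 47 windows, or 19.1%, and in 8.36% of all 32851 windows. The match is a description of letters and not a bound site. Birc2 and Ei24 also had a match, and their windows are not shown. The windows around the element are shown for p53 itself and for other members with a match, picked by hand. They run 5′ to 3′ on the gene's strand, with the element in capitals.
Trp53, chr11:69580264-69580313, plus strand: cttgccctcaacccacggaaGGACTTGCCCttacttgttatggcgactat
Mdm2, chr10:117710915-117710964, minus strand: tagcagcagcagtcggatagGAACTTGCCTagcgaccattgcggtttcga
Cdkn1a, chr17:29090886-29090957, plus strand: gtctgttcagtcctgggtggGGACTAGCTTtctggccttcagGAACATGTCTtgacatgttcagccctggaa
Ccng1, chr11:40755442-40755491, minus strand: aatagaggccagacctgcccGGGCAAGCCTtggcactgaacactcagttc
Gadd45a, chr6:67037418-67037467, minus strand: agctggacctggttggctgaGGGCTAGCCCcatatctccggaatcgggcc
Bax, chr7:45467070-45467119, minus strand: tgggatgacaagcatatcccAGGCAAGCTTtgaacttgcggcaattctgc
Bmf, chr2:118544771-118544820, minus strand: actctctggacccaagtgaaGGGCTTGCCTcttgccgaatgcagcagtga

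Of the 9 members with a match, Trp53 was the only one with an unadjusted limma p under 0.05, a threshold that 10.9% of all genes met. Cdkn1a is the only printed window with 2 matches. The Cdkn1a level, read by the main probe, differed in both directions between single ischemia arrays, as described above. Whether that probe reads a transcript that starts at this window was not analysed here.

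Gadd45b had the smallest p of the members (rank 206 of 19751 genes). Its product is a small stress-induced protein that couples to MAP kinase signalling and, in neurons, is induced by activity. The probe lies at 80394367 to 80394426 of chromosome 10. Levels were -1.05, -1.10, -1.13 and -0.96 in ischemia replicates 1 to 4, against -0.88, -0.77, -0.68 and -0.79 in control replicates 1 to 4. All 4 ischemia arrays lay below all controls, and each group spread by an SD of under 0.1. The difference was -0.28 (SE 0.07, limma adjusted p = 0.243), so the ischemia level was 0.822 times that of the controls. Gadd45a, its relative and also grouped here as a p53 target, did not follow it, with levels from -2.08 to -1.70 in ischemia and from -2.24 to -1.82 in controls.

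The remaining p53 targets differed by little. Trp53inp1, a nuclear and autophagy protein induced by p53, stood at 0.78, 0.92, 0.96 and 0.74 in ischemia replicates 1 to 4 and at 0.81, 0.73, 0.66 and 0.81 in control replicates 1 to 4. Its difference was 0.10 (SE 0.07, limma adjusted p = 0.666), but a dimmer second probe gave -0.16, and without ischemia replicate 3 the main probe gave 0.07. Ccng1 encodes cyclin G1, part of the feedback on p53. It stood at 0.44, 0.32, 0.32 and 0.32 in ischemia replicates 1 to 4 and at 0.37, 0.35, 0.51 and 0.52 in control replicates 1 to 4, so 3 ischemia arrays lay below all controls and replicate 1 did not. Phlda3, a repressor of the kinase AKT, ranged from 2.37 to 2.63 in ischemia and from 2.51 to 2.66 in controls. Ei24, a protein of the endoplasmic reticulum, ranged from 0.82 to 1.04 in ischemia and from 0.90 to 0.99 in controls. Plk2, a polo-like kinase that p53 and neuronal activity both induce, ranged from 1.83 to 2.25 in ischemia and from 1.92 to 1.97 in controls. As with Cdkn1a, its controls lay inside the ischemia range, but ischemia replicate 1 was the lowest array and ischemia replicate 3 the highest. Among all 8 genes grouped here as p53 targets of arrest, repair and feedback, Gadd45b included, 4 were higher and 4 lower, with a median difference of 0.01.

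**Figure D3:**
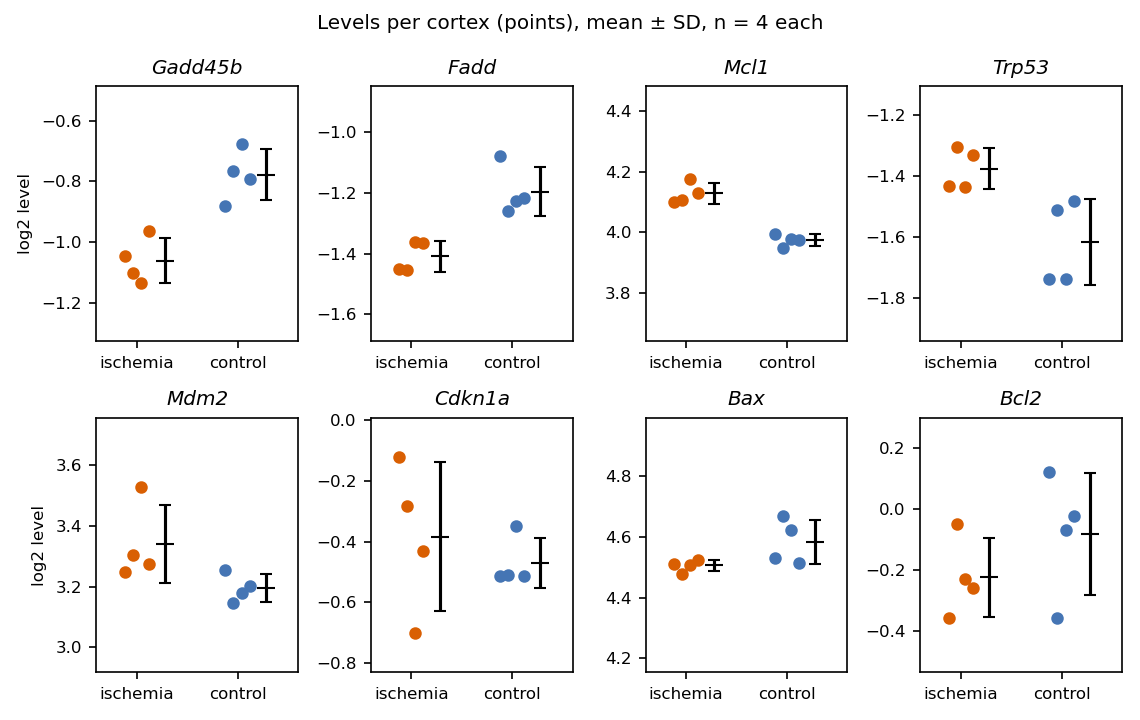
Levels of 8 members in each cortex (points, log2 relative to the array's 75th percentile) for ischemia (orange) and control (blue), with mean ± SD (n = 4 each), on panels that all span the same number of log2 units. The groups are separate for Gadd45b, Fadd, Mcl1 and Trp53 and overlap for Mdm2, Cdkn1a, Bax and Bcl2.

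Among the pro-survival genes, Mcl1 lay above the controls in every ischemia array. MCL-1 is a short-lived member of the BCL-2 family that holds BAK and BH3-only proteins, and progenitors of the developing cortex need it. Its brighter probe, at 95466855 to 95466914 of chromosome 3, gave 4.10, 4.11, 4.18 and 4.13 in ischemia replicates 1 to 4, against 3.99, 3.95, 3.98 and 3.98 in control replicates 1 to 4. The spread was small in both groups (SD 0.03 in ischemia and 0.02 in controls, n = 4 each). The difference was 0.15 (SE 0.05, limma adjusted p = 0.345), a 1.11-fold higher level. A second probe, at 95465543 to 95465602, gave levels from 0.45 to 0.67 in ischemia and from 0.48 to 0.60 in controls, which overlap, and a difference of 0.04. Averaged over both probes, Mcl1 differed by 0.10 (limma adjusted p = 0.601).

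Bcl2, the founding member of the family, did not separate the groups. Its probe lies at 108608970 to 108609029 of chromosome 1, and it stood at -0.36, -0.05, -0.23 and -0.26 in ischemia replicates 1 to 4 and at 0.12, -0.36, -0.07 and -0.02 in control replicates 1 to 4. Control replicates 1 and 2 were the highest and close to the lowest of the 8 arrays. The difference of -0.14 (SE 0.11, limma adjusted p = 0.697) was -0.24 without control replicate 2, -0.07 without control replicate 1, -0.09 with normexp and -0.058 without ischemia replicates 1 and 4. Bcl2l1 encodes BCL-XL, which keeps young postmitotic neurons alive. It stood at 5.36, 5.27, 5.30 and 5.25 in ischemia replicates 1 to 4 and at 5.17, 5.26, 5.14 and 5.28 in control replicates 1 to 4, which overlap. The difference was 0.08 (SE 0.06, limma adjusted p = 0.653), and 0.03 with the mean of its probes, the second of which gave -0.03. Bcl2l2, which encodes BCL-W, ranged from 0.36 to 0.49 in ischemia and from 0.42 to 0.54 in controls. Over these 4 genes, 2 were higher and 2 lower.

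The pore-forming genes showed little difference. Bax, required for the death of many neurons and read at 52717122 to 52717181 of chromosome 7, stood at 4.51, 4.48, 4.51 and 4.53 in ischemia replicates 1 to 4 and at 4.53, 4.67, 4.62 and 4.51 in control replicates 1 to 4. The ischemia arrays lay close together (SD 0.02, n = 4), at the lower end of the controls (SD 0.07, n = 4). The difference was -0.08 (SE 0.06, limma adjusted p = 0.675), and -0.05 without control replicate 2. Bak1, its partner, ranged from 1.81 to 2.04 in ischemia and from 1.73 to 2.10 in controls.

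Of the 7 BH3-only genes, 6 were kept, 4 of them higher and 2 lower in ischemia, with a median difference of 0.02. Hrk, a BH3-only gene of neurons, had levels of 2.74, 2.57, 2.71 and 2.83 in ischemia replicates 1 to 4 and 2.29, 2.64, 2.40 and 2.76 in control replicates 1 to 4. Its difference was 0.19 (SE 0.11, limma adjusted p = 0.585), 0.12 without control replicate 1, the lowest array, and 0.12 without ischemia replicates 1 and 4. Bmf, whose product is held at the cytoskeleton until stress or loss of adhesion frees it, had levels of -0.48, -0.35, -0.32 and -0.36 in ischemia replicates 1 to 4 and -0.36, -0.74, -0.55 and -0.62 in control replicates 1 to 4. Control replicate 1 lay within the ischemia range and the other 3 controls below it, for a difference of 0.19 (SE 0.09, limma adjusted p = 0.489).

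The p53-induced gene Bbc3, which encodes PUMA, ranged from 3.56 to 3.82 in ischemia and from 3.67 to 3.83 in controls. Pmaip1, which encodes NOXA, had a dim probe that was well above background on 3 of 4 ischemia and 4 of 4 control arrays. Its level ran from -3.65 to -2.62 in ischemia and from -3.38 to -2.42 in controls, a range in each group that was wider than any difference between the group means of the members. Bid, the link from caspase-8 to the mitochondria, ranged from 0.85 to 1.23 in ischemia and from 0.89 to 1.09 in controls. Bad, which survival kinases hold inactive, ranged from 4.39 to 4.64 in ischemia and from 4.38 to 4.64 in controls. Bcl2l11, which encodes BIM, was not kept. Its brighter probe was well above background only in ischemia replicate 2, at -2.91, and the second probe on 0 of 8 arrays.

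**Figure D4:**
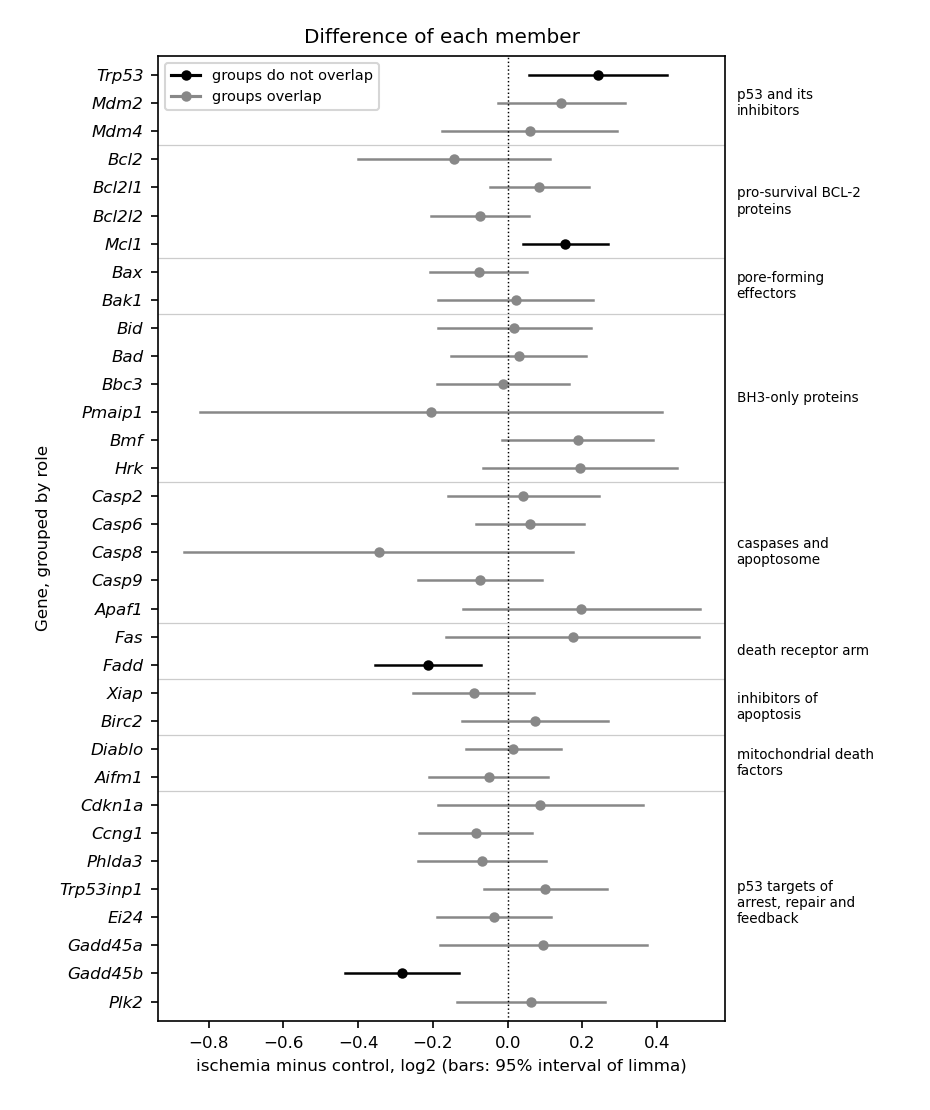
Ischemia minus control difference (x axis, log2) of the 34 kept members, grouped by role, with the 95% interval from limma as bars. Black marks the 4 members whose groups did not overlap, at 0.24, 0.15, -0.21 and -0.28, and the widest intervals are those of Pmaip1 and Casp8.

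The caspases and the apoptosome scaffold gave 3 higher and 2 lower genes. Apaf1, which forms the apoptosome and was read at 90452580 to 90452639 of chromosome 10, stood at -0.52, -1.11, -0.92 and -0.86 in ischemia replicates 1 to 4 and at -0.98, -1.28, -1.10 and -0.83 in control replicates 1 to 4. Ischemia replicate 1 lay highest, and without it the difference of 0.20 (SE 0.14, limma adjusted p = 0.662) became 0.09. Without control replicate 2 it was 0.12, with normexp 0.09, and without ischemia replicates 1 and 4 it was 0.03. Casp9, the initiator caspase that the apoptosome activates, was read at 141371773 to 141371832 of chromosome 4. It stood at 2.63, 2.62, 2.66 and 2.83 in ischemia replicates 1 to 4 and at 2.72, 2.73, 2.70 and 2.88 in control replicates 1 to 4. In each group replicate 4 was the highest. The difference was -0.07 (SE 0.07, limma adjusted p = 0.767), and it was -0.12 without ischemia replicate 4, -0.03 without control replicate 4 and -0.018 with normexp.

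Casp8, the initiator caspase of the receptor route, gave the largest difference of a kept member in either direction. Its probe lies at 58901601 to 58901660 of chromosome 1, and it stood at -2.21, -2.34, -3.33 and -2.51 in ischemia replicates 1 to 4 and at -2.42, -2.29, -2.25 and -2.05 in control replicates 1 to 4. The difference of -0.35 (SE 0.23, limma adjusted p = 0.638) was -0.10 without ischemia replicate 3, -0.15 with normexp and -0.58 without ischemia replicates 1 and 4. Casp2, an initiator caspase of the DNA damage response, ranged from 2.81 to 3.22 in ischemia and from 2.94 to 3.03 in controls. Casp6, an effector caspase with a part in axon pruning, ranged from 0.29 to 0.46 in ischemia and from 0.21 to 0.36 in controls.

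Fadd, which joins FAS to caspase-8, lay below every control in all 4 ischemia arrays. Its probe is at 151764228 to 151764267 of chromosome 7. The level was -1.45, -1.46, -1.36 and -1.37 in ischemia replicates 1 to 4, against -1.08, -1.26, -1.23 and -1.22 in control replicates 1 to 4. The difference of -0.21 (SE 0.06, limma adjusted p = 0.307) put the ischemia level at 0.863 times that of the controls. Fas, the receptor itself, was at the limit of detection, with 2 of 4 ischemia and 2 of 4 control arrays well above background and levels from -4.25 to -3.74 in ischemia and from -4.46 to -3.93 in controls.

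The inhibitors of apoptosis did not separate the groups. Xiap, the direct inhibitor of caspases, ranged from 2.32 to 2.50 in ischemia and from 2.38 to 2.63 in controls. Birc2, which encodes the ubiquitin ligase cIAP1, ranged from -0.28 to -0.10 in ischemia and from -0.43 to -0.10 in controls. Birc3, which encodes cIAP2 and lies beside Birc2 on chromosome 9, was not kept. The brighter of its probes stood at -1.99, -5.04, -3.14 and -5.72 in ischemia replicates 1 to 4 and at -4.33, -5.76, -5.72 and -3.39 in control replicates 1 to 4. It was well above background in ischemia replicates 1 and 3 and in control replicate 4, and its second probe on 0 of 8 arrays. Within each group this probe differed by more than 2 log2 units between arrays, so no difference between the groups is given.

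The mitochondrial death factors overlapped between the groups. Diablo, which releases caspases from XIAP, ranged from 1.84 to 1.92 in ischemia and from 1.76 to 1.89 in controls, although a dimmer second probe gave a difference of -0.17. Aifm1, a flavoprotein of the respiratory chain that can move to the nucleus in dying cells, ranged from 1.97 to 2.09 in ischemia and from 1.95 to 2.20 in controls. For 19 of the kept members levels are given above without a difference, and their differences lay between -0.21 and 0.17, with limma adjusted p from 0.690 to 0.972.

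**Figure D5:**
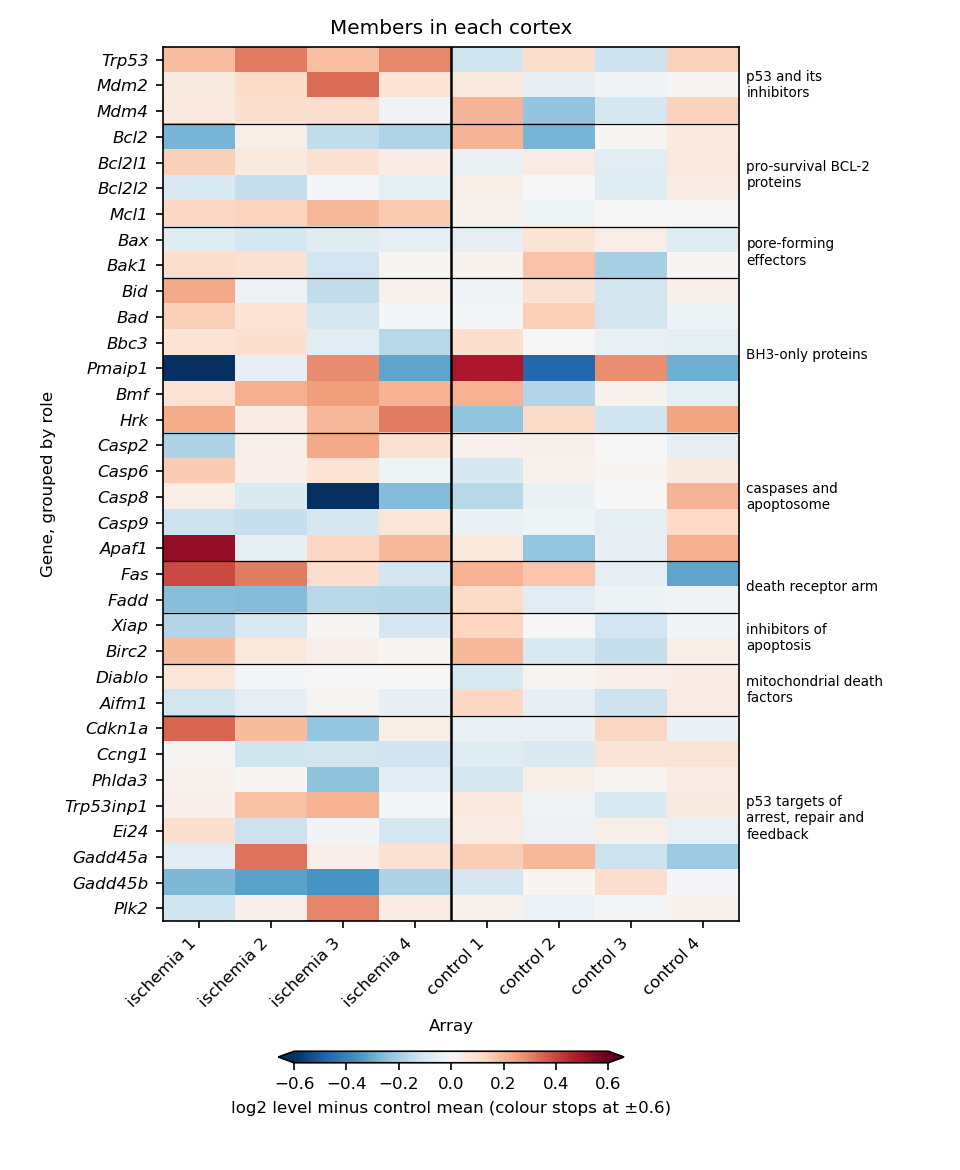
Each kept member (rows, grouped by role) in each cortex (columns, ischemia left of control), coloured by its log2 level minus the control mean, with red higher and blue lower. The rows of Trp53 and Mcl1 are red and those of Gadd45b and Fadd blue in all 4 ischemia arrays. All ischemia values also lie above the control mean for Mdm2, Bcl2l1, Bmf, Hrk and Birc2, and below it for Bax and Bcl2l2. The groups of these members overlap. Most other rows mix both colours in ischemia. Control cells mix colours in every row, because they are set against their own mean.

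The members spread between arrays about as much in ischemia as in controls. The SD within the group was larger in ischemia for 16 of 34 members, or 47.1%, and for 50.1% of all genes. It was over 2 times larger in ischemia for 6 members, Casp2, Casp8, Cdkn1a, Ei24, Mdm2 and Plk2 (17.6%, as against 16.2% of all genes). It was over 2 times larger in controls for 5, Aifm1, Bax, Bmf, Mdm4 and Trp53 (14.7%, as against 15.1% of all genes). For Mdm2, Plk2, Casp2, Casp8 and Cdkn1a, ischemia replicates 1 and 3 held the opposite extremes of their group. Of the 34 kept members, ischemia replicate 1 was the highest of its group for 14 and the lowest for 10. Ischemia replicate 3 was the highest for 12 and the lowest for 8. The share of all genes with these extremes was not counted, so the pattern is not shown to be particular to these members. Over the kept members the median SD was 0.10 in ischemia and 0.08 in controls, and over all genes 0.13 and 0.12.

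Genes around the members were read from further lists, none of whose genes passed the test. Of 18 measured regulators of p53, 12 were higher and 6 lower (median 0.03), with Atr, a kinase of the DNA damage response, at -0.21 (limma adjusted p = 0.468, and -0.078 with the mean of its probes) and Rchy1, a ubiquitin ligase of p53, at 0.10 (limma adjusted p = 0.542). Of 27 further p53 targets, 13 were higher and 14 lower (median -0.0008). Sesn1, which encodes the stress protein sestrin 1, differed by 0.29 (SE 0.08, limma adjusted p = 0.306). Ddit4l, an inhibitor of mTOR signalling, differed by 0.28 (SE 0.13, limma adjusted p = 0.490) and by 0.17 with normexp.

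Further apoptosis genes lay mostly lower, 21 of 27, with a median of -0.07 next to -0.02 over all genes. Birc5, which encodes survivin and is expressed in dividing cells, differed by -0.43 (SE 0.11, limma adjusted p = 0.265), and Vdac3, a channel of the outer mitochondrial membrane, by -0.16 (SE 0.05, limma adjusted p = 0.329). Among 15 cell cycle genes 15 were lower, with a median of -0.27 and 9 at an unadjusted limma p under 0.05, where 7.65% of all genes were lower at that p. Genes of blood cells were lower as well, 5 of 5 with a median of -0.50. Relative to the control mean they averaged -0.19, -0.02, -0.51 and -0.89 in ischemia replicates 1 to 4, and between -0.41 and 0.31 in controls, and their part in these values was not tested. Tk1 differed by -0.62 (limma adjusted p = 0.151) and Ccnb2, a mitotic cyclin, by -0.50 (limma adjusted p = 0.221). With the mean of its probes, Tk1 differed by -0.45 (limma adjusted p = 0.424). Of 10 immediate early genes, which share induction by activity with Gadd45b and Plk2, 7 were higher and 3 lower (median 0.06), with Dusp1 at 0.24 (limma adjusted p = 0.344) and Egr1 at 0.19 (limma adjusted p = 0.548). Egr1 stood at 0.11 without ischemia replicate 1 and at 0.13 with array weights.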

How the data were processed

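RNA of 8 cortices (50 ng each) was labelled with Cy3 and hybridised to single-colour Agilent arrays, per the labels' protocols. Spot values come from Feature Extraction 10.7.3.1 of Agilent, per the submitters' processing notes and the file headers. The deposited values are intensities on a linear scale: the processed signal, which the software corrects for background and spatial trends, and the mean and local background signals. The authors' deposited value table is a ratio. Tested on spots above 1000, it is the processed signal over a constant of each array, to within 0.0015%, and what the constant is stays unknown. It served as an alternative.

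Control spots and flagged outlier spots were left out, and 26 of 55681 probes with no remaining spot on some array were dropped. Spots of a probe were averaged on the log2 scale and set relative to the 75th percentile of that array. A probe was kept when well above background on at least 4 of 8 arrays (27131 probes), counting a probe with at least 0.5 of its spots above. A gene's kept probe with the highest mean was used. Names came from RefSeq (GRCm38.p6) where the accession or symbol matched, and none of the member names changed.

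Groups were compared with limma 3.58.1 (functions lmFit and eBayes, R 4.3.3). P-values were adjusted by Benjamini-Hochberg over 19751 genes, with a threshold of 0.05. The test was run on simulated data beforehand. Members and lists were chosen with earlier results of these data known. Values and differences are given for 8 core members, the 12 members of smallest p, and 2 genes per further list, chosen likewise. For other members levels are given, for most as a range. As alternatives, the background correction, the scaling, the filter, the choice of probe and the variance model were each varied, and the replicate block, the authors' table and left-out arrays were tried. The number of arrays limits the precision.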

Additional observations from a re-analysis of the deposited data

Results flagged for a closer look

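In 68 sets of 4 arrays (34 members in each group), the gap of the highest or lowest array to the nearest other was compared with the range of the set. It exceeded the 95% critical value of Dixon's ratio in 4 sets, where chance gives about 3.4 in independent sets. Cdkn1a had a ratio of 0.973 in controls, where replicate 3 stood at -0.35 and the next at -0.51. Ccng1 had a ratio of 0.931 in ischemia, where replicate 1 stood at 0.44 and the next at 0.32. Diablo had a ratio of 0.848 in ischemia, with replicate 1 at 1.92 and the next at 1.85. Casp9 had a ratio of 0.831 in controls, with replicate 4 at 2.88 and the next at 2.73.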

How the results depend on the processing

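With limma, 0 members passed at 0.05 under each of the 20 other settings and at a threshold of 0.1, while 1 to 5 had an unadjusted p under 0.05. The number of all genes called, 1 in the fit described, was 0 with normexp, with quantile normalization, with a filter that asks for 8 of 8 arrays above background, with no filter on dim probes, and without ischemia replicates 1 and 4. It was 2 with median scaling, 20 with a trended and robust variance and 3 at an adjusted p threshold of 0.1. With 1 array left out it was 0 to 1, as 0 genes passed in each case but the one without ischemia replicate 4. The members at an unadjusted p under 0.05, 4 in the fit described, were 1 with median scaling (Gadd45b), 2 with a trended and robust variance (Gadd45b and Mcl1) and 4 to 5 with 1 array left out. The cause was not tested. With the replicate number as a block, 0 genes and 0 members passed and 5 members had an unadjusted p under 0.05. Same-numbered arrays correlated at 0.08, -0.06, 0.29 and 0.39 in their deviations from the group means, and only the arrays numbered 3 and 4 each correlated best with their own number, so the numbers were not taken as pairs. Of 500 differences of single genes under other settings, 2 turned sign: Trp53inp1 was -0.028 with the mean of its probes, since its second probe points down, and Cdkn1a -0.020 without ischemia replicates 1 and 4. Tk1 passed with the trended variance (adjusted p = 0.0313). Over all these settings Trp53 ranged from 0.14 to 0.29, Mcl1 from 0.10 to 0.17, Fadd from -0.23 to -0.17 and Gadd45b from -0.34 to -0.19.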
